A study of Taeniopygia guttata with 5 samples.

Results

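Interferon-inducible genes are switched on when a cell senses a virus or an interferon, and 4 of them were followed here in the brain of developing male zebra finches: ISG12, a pair of neighbouring LY6E genes named LY6E-1 and LY6E-2, and TRIM25. They are 4 of the 4675 transcripts in the deposited tables, chosen by gene name after results of these data were known. What chose them was the lower reads of ISG12 and LY6E-2 in HVC at 100 d than at 45 d, and the higher reads of all 4 in HVC than in whole brain at 45 d, so values of these 2 comparisons are given as a description without a test. HVC is the forebrain nucleus that drives learned song. RNA-Seq was done on HVC at 100 d (1 library, R92L3), HVC at 45 d (2 libraries, R92L1 and R92L2), whole brain (WB) at 100 d (1 library, R81L5) and WB at 45 d (1 library, R81L6). The study's methods give RNA of 4 males for each HVC library and of 2 brains for each WB library. The 45 d juveniles lived with their parents, and the 100 d adults lived in group cages after leaving them. All birds were watched in the morning before collection so that those taken had neither sung nor heard song. Housing thus differs with age, and the run label (R92 or R81) with tissue, and neither can be told apart from the comparison it goes with.

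The tables list, for each of 4 comparisons, the 1800 transcripts with the smallest p-values, and 1205 transcripts have reads for all 5 libraries. Listed reads summed to between 495316 and 1014565 per library, which is a part of the depth only. Reads were therefore divided by relative library sizes of 0.907 for R92L1, 1.09 for R92L2, 1.81 for R81L6 and 1.51 for R81L5, with R92L3 as 1, and these size-scaled reads are the levels below. Only the 45 d HVC pair gives a spread between libraries, and nothing says that its libraries hold different birds, so standard errors (SE) and p-values measure a spread that may be technical. The other libraries are assumed to vary like that pair. ALDH1A2, CRHBP and NTS, known markers of HVC, had summed levels of 5045 in HVC at 100 d, against 600.0 in WB at 100 d, and of 5134 and 5955 in HVC at 45 d, against 711 in WB at 45 d, as the labels say.

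Interferons bind receptors whose kinases activate transcription factors, and these turn on a large set of effector genes. ISG12 belongs to a family of small hydrophobic proteins that includes mammalian IFI27 and IFI6 and is found largely at mitochondria and the nuclear envelope. LY6E is a small protein anchored to the cell surface by a lipid, which in mammals alters the entry of several viruses. TRIM25 is a ubiquitin ligase that acts on the RNA sensor RIG-I in mammals.

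ISG12 lies on chromosome 2 from 94975562 to 94980116 on the plus strand (taeGut1). LY6E-1 (155434006 to 155459520) and LY6E-2 (155464235 to 155470366) lie on the minus strand of the same chromosome with 4714 bp between them. TRIM25 lies on chromosome 18 from 10855881 to 10862244, also on the minus strand. These are spans of the gene models, introns included. The study had primers made for ISG12 and LY6E-2, the 2 members with the largest age difference in HVC, and their sequences are shown, 5′ to 3′ and with no base marked, because they are the oligos the study used under these names; whether they match the tabulated transcripts was not checked here.
ISG12 forward: ttaggcatatcctgagtttag
ISG12 reverse: taccctttgctgagtgttt
LY6E-2 forward: tctcctactcctggcatt
LY6E-2 reverse: gtgcccagtttctgttta
RefSeq (assembly bTaeGut7.mat) gives the protein-coding gene of the ISG12 primers the symbol IFI6, another member of the same family. The symbol ISG12 is kept here as in the tables.

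ISG12 had 290 reads in HVC at 100 d, against 2263 (R92L1) and 5818 (R92L2) reads in HVC at 45 d. In WB it had 156 reads at 100 d, against 937 reads at 45 d. Scaled for size, the levels were 290 in HVC at 100 d and 2494 and 5340 in HVC at 45 d, and 104 in WB at 100 d and 518 in WB at 45 d. Both 45 d HVC libraries thus stood above every other library, WB at 45 d came next, HVC at 100 d followed, and WB at 100 d was the lowest. WB at 45 d exceeded HVC at 100 d by a ratio of 1.79 (95% exact interval 1.56 to 2.04, which like all such intervals here covers counting error only). This ratio spans the tissues, and scalings computed from the listed reads would shrink it. With the sizes used, the 45 d juveniles of either tissue were above the 100 d adults of either tissue for this gene.

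**Figure D1:**
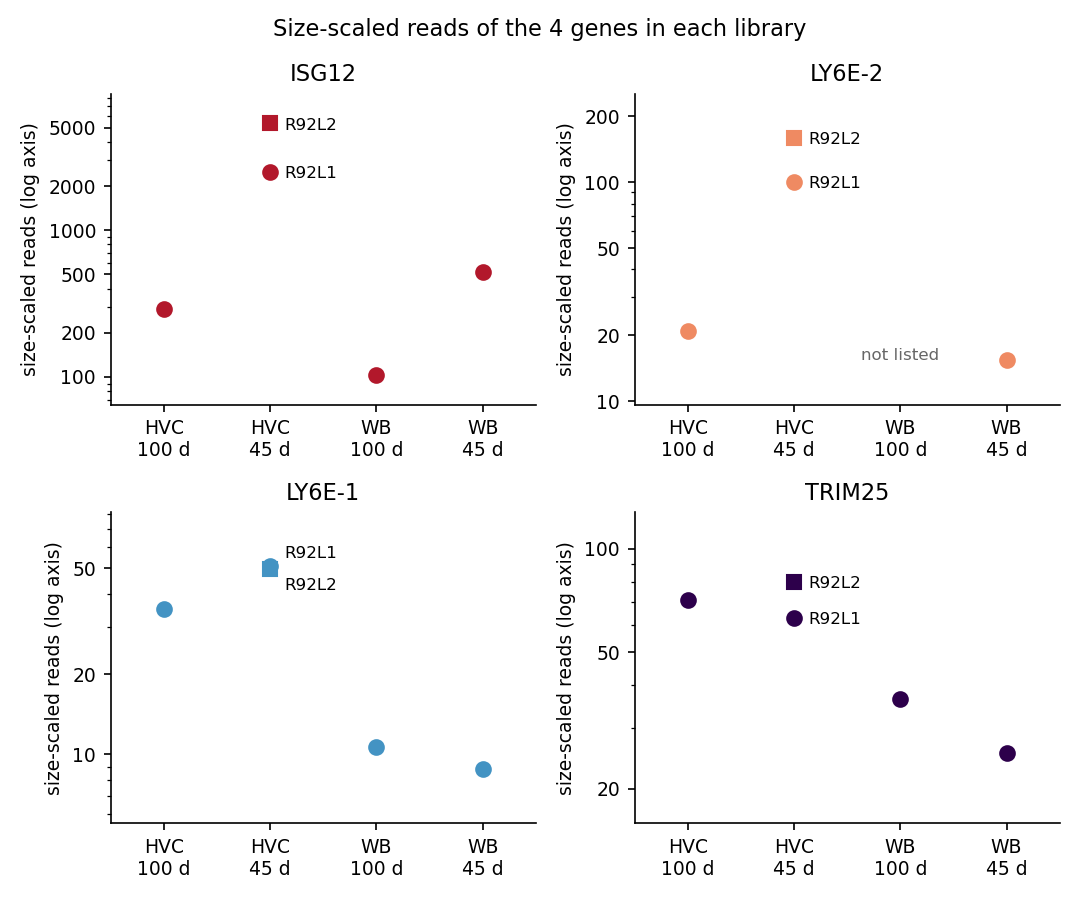
Size-scaled reads (log axes) of ISG12, LY6E-2, LY6E-1 and TRIM25 in each library, with the tissue and age on the horizontal axis; circles and squares in HVC at 45 d are R92L1 and R92L2. ISG12 is low at 100 d in both tissues (290 in HVC, 104 in WB), LY6E-2 is low in HVC at 100 d (21), and TRIM25 at 100 d in HVC (71) lies between the 45 d HVC libraries.

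With age, ISG12 was 13.5-fold lower in HVC at 100 d than at 45 d (log2 difference -3.76, SE 0.50), the lowest of the 1635 transcripts with a mean of at least 20 reads. Against the libraries singly, HVC at 100 d was 8.60-fold below R92L1 (7.61 to 9.75) and 18.4-fold below R92L2 (16.4 to 20.8), so the size of the fall depended on the 45 d library. In this comparison edgeR called 0 of 2150 transcripts at an adjusted p under 0.1 (0.0%), while 444 had an unadjusted p under 0.05 and DESeq2 called 2. A level of ISG12 below both 45 d libraries was shared by LY6E-2 and LY6E-1, which makes 3 of the 4 members beside 41.9% of all fitted transcripts. ISG12 and LY6E-2 were chosen on this fall, so the count is a description only. In bulk tissue, fewer cells of a type and less RNA per cell cannot be told apart.

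The age difference of ISG12 in WB is not among the values that chose the gene, although it shares the 45 d WB library with the 45 d comparison. Earlier results of these data were known at the choice, and ISG12 is listed among the smallest p-values of all 4 comparisons. The p-value below is therefore not an independent test. ISG12 fell to 156 reads in WB at 100 d, against 937 in WB at 45 d, a log2 difference of -2.32 (SE 0.39) or 5.0-fold, with an edgeR adjusted p of 4.87e-05. It was 1 of 3 transcripts called lower among 1318 (0.228%), and 2 were called higher (0.152%). The call rests on a spread borrowed from all transcripts: the adjusted p ran from 2.30e-06 to 1 over the alternatives, and it was 0.202 with DESeq2 and 0.0840 with a robust spread. In the 45 d HVC pair ISG12 itself had a standard deviation of 0.78 on the log2 scale. The SE and p-value in WB may thus be too small for this gene. The counting interval of the fall was 4.22 to 5.96-fold, and every scaling gave a log2 difference between -2.43 and -2.23. LY6E-1 and TRIM25, by contrast, gave log2 differences of 0.26 (SE 0.76) and 0.52 (SE 0.56) in WB, and both had an edgeR adjusted p of 1.

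The fall of ISG12 was larger in HVC than in WB by a log2 difference of -1.43 (SE 0.47). The HVC side of this contrast was used to choose the gene, so no p-value is given. The value was -1.88 without R92L1 and -0.78 without R92L2, while the difference over all 1177 fitted transcripts had a median of -0.04. Among the 978 transcripts with at least 20 reads, 33, ISG12 included, had a value as low as its own. LY6E-1 gave -0.78 (SE 0.95) and TRIM25 -0.53 (SE 0.71), with SE values about as large as the differences. LY6E-2 has no reads listed for WB at 100 d, so its age difference in WB was not analysed here.

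**Figure D2:**
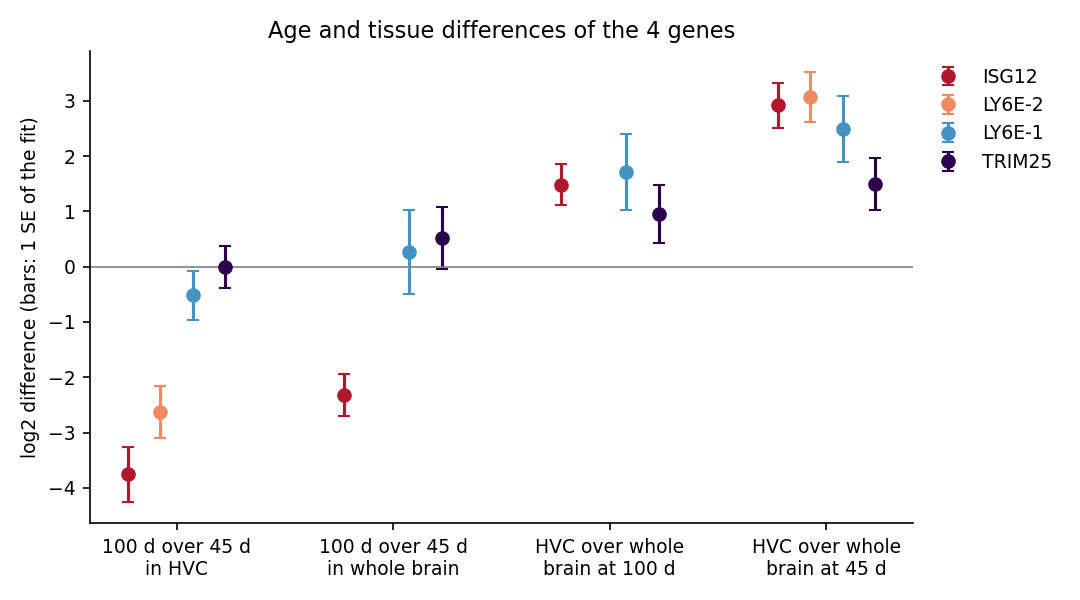
Log2 differences of the 4 genes (points, with bars of 1 SE of the edgeR fit) for 100 d over 45 d in HVC and in whole brain, and for HVC over whole brain at 100 d and at 45 d. ISG12 lies below 0 with age in both tissues (-3.76 in HVC, -2.32 in whole brain), LY6E-2 lies below 0 in HVC (-2.62), and every gene plotted lies above 0 in HVC over whole brain.

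Between tissues at 100 d, which did not choose the members but shares the 100 d HVC library with the age comparison, ISG12 was higher in HVC by a log2 difference of 1.48 (SE 0.37), with an edgeR adjusted p of 0.00647. Its reads were 290 in HVC at 100 d and 156 in WB at 100 d, and the WB library was the larger. edgeR called 10.7% of the 1361 transcripts higher and 13.7% lower here, so a call is common. Earlier results of these data were known when the members were chosen, so p-values of this comparison are not independent tests either. Over the alternatives the adjusted p of ISG12 ran from 0.00467 to 1, and with DESeq2 it was 1. At the same age LY6E-1 had 35 reads in HVC, against 16 in WB (log2 difference 1.71, SE 0.69, edgeR adjusted p 0.270). TRIM25 had 71 reads in HVC, against 55 in WB (log2 difference 0.96, SE 0.53, edgeR adjusted p 0.782). Neither passed the test, and all 3 members listed were above WB in level, beside 45.8% of all fitted transcripts. By the libraries they have reads for and their small age differences, LY6E-1 and TRIM25 were listed for the tissue comparisons. Their reads at 100 d thus came in through their p-values in this same comparison. LY6E-2, with no reads listed for WB at 100 d, is not counted. The count therefore describes listed genes only.

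At 45 d all 4 members had higher levels in both HVC libraries than in WB, beside 41.9% of the 1920 transcripts fitted. The log2 differences were 3.06 (SE 0.45) for LY6E-2, 2.92 (SE 0.41) for ISG12, 2.49 (SE 0.60) for LY6E-1 and 1.49 (SE 0.47) for TRIM25. edgeR called 15.6% of all transcripts higher and 23.3% lower in this comparison, and the members were chosen on it. The tissue differences stand beside a median over all fitted transcripts of -0.42 at 100 d and -0.70 at 45 d. Scalings computed from the listed reads moved these medians to between -0.04 and 0.16 at 100 d and between -0.33 and -0.07 at 45 d, and they raised ISG12 to at most 2.01 at 100 d and 3.45 at 45 d. The direction of no member changed with the scaling in either tissue comparison.

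LY6E-2 had 21 reads in HVC at 100 d, against 91 (R92L1) and 173 (R92L2) in HVC at 45 d, and 28 reads in WB at 45 d. In size-scaled reads it stood at 21 in HVC at 100 d, against 100 and 159 in HVC at 45 d, and at 15.5 in WB at 45 d. With the sizes used, HVC at 100 d was thus near the 45 d whole brain, with a ratio of 1.36 (0.73 to 2.48) that counting error alone could cover. Scalings computed from the listed reads put HVC higher against WB and would raise this ratio. The age difference in HVC was -2.62 on the log2 scale (SE 0.47), 6.16-fold lower at 100 d and the next after ISG12 among the 1635 transcripts. Left with R92L1 alone at 45 d the difference was -2.25, and with R92L2 alone -2.91.

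Its neighbour LY6E-1 had 35 reads in HVC at 100 d, against 46 and 54 in HVC at 45 d, and 16 reads in WB at each age. Its levels were 35 in HVC at 100 d, against 50.7 and 49.6 in HVC at 45 d, and 10.6 in WB at 100 d, against 8.84 in WB at 45 d. HVC at 100 d was below both 45 d libraries, yet the ratios to them, 0.69 (0.43 to 1.10) and 0.71 (0.45 to 1.10), had counting intervals that took in 1. The fitted age difference in HVC was -0.52 (SE 0.44). Every HVC library was above both WB libraries. At 45 d this follows the choice of the gene. At 100 d the difference did not pass the test, and the reads were listed through that same comparison.

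The ratio of the 2 LY6E genes within a library needs no scaling. LY6E-2 had 0.60 reads for each read of LY6E-1 in HVC at 100 d (0.33 to 1.06), against 1.98 (1.37 to 2.89) and 3.2 (2.35 to 4.43) in HVC at 45 d. In WB at 45 d the ratio was 1.75 (0.91 to 3.46). The 100 d value lay below both 45 d values, which follows the choice of LY6E-2 on its age difference in HVC. How reads that match both genes were assigned is not given in the sources used here, so both counts are uncertain to that extent.

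TRIM25 had 71 reads in HVC at 100 d, against 57 and 87 in HVC at 45 d, and 55 reads in WB at 100 d, against 46 in WB at 45 d. Its levels were 71 in HVC at 100 d, within the 62.8 and 79.9 of the 45 d pair, and 36.5 in WB at 100 d, against 25.4 in WB at 45 d. The age difference in HVC was -0.01 (SE 0.38). It was 0.18 without R92L2 and -0.17 without R92L1, so no direction can be given. ISG12 reads per TRIM25 read, again free of scaling, numbered 4.08 (3.14 to 5.37) in HVC at 100 d, against 39.7 (30.5 to 52.6) and 66.9 (54.1 to 83.6) in HVC at 45 d. In WB this ratio was 2.84 (2.07 to 3.93) at 100 d, against 20.4 (15.1 to 28.0) at 45 d. The lower HVC ratio at 100 d follows the choice of ISG12 on its age difference in HVC. These ratios compare reads of genes of unequal length and are read only between libraries.

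Of the 4 members, ISG12 and LY6E-2 had the largest ratios between the 45 d HVC libraries, though the interval of LY6E-2 overlapped that of TRIM25. ISG12 was higher in R92L2 than in R92L1 by a ratio of 2.14 (2.04 to 2.25), and LY6E-2 by 1.58 (1.22 to 2.06). TRIM25 gave 1.27 (0.90 to 1.81) and LY6E-1 0.98 (0.65 to 1.48), both with intervals that took in 1. Of 2391 transcripts that reached 20 reads over the pair, 51.5% were higher in R92L2 and the median log2 ratio was 0.01, a balance that the scaling by library size sets. A ratio as high as that of ISG12 was reached by 4.27% of them, and one as high as that of LY6E-2 by 11.1%. Of the 102 transcripts with a mean level of at least 1000, ISG12 was the only one with so high a ratio, and 5, ISG12 included, were as far apart in either direction. The members were chosen on comparisons that use the reads of this same pair, so these shares are a description only.

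**Figure D3:**
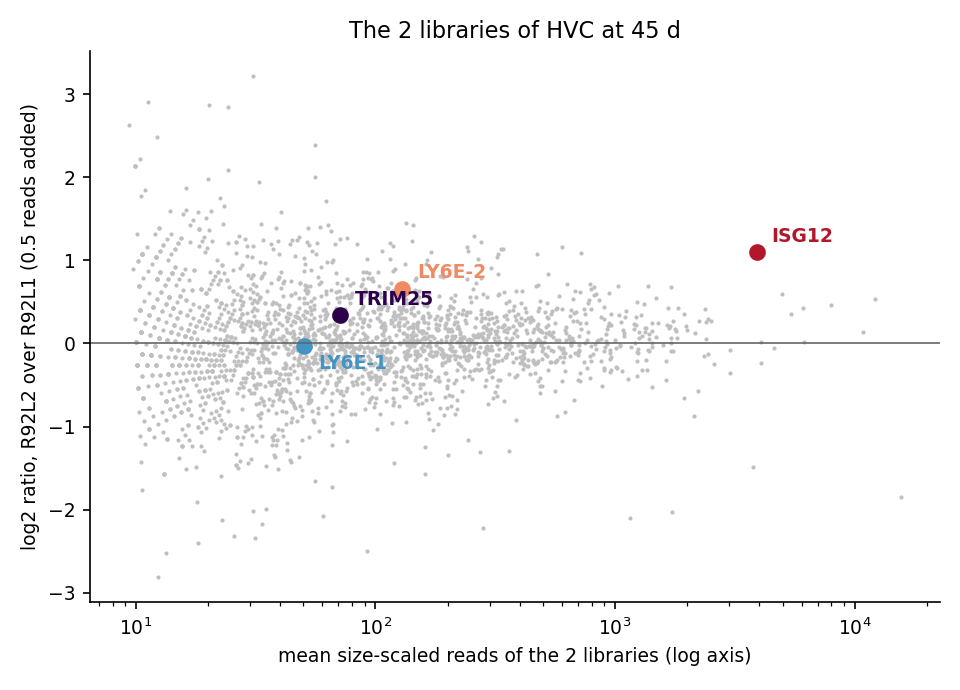
Log2 ratio of R92L2 over R92L1 (vertical axis, 0.5 reads added to each count) against the mean size-scaled reads of both (log axis) for 2391 transcripts that reached 20 reads over the pair; grey points are all transcripts and coloured points the 4 genes. ISG12 stands high at the right, where few transcripts differ as much, while LY6E-1 lies at 0.

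Genes of the interferon pathway other than the members were taken from lists of ligands and receptors, signalling factors, nucleic acid sensors, effectors, ubiquitin ligases and antigen presentation. Of 114 names, 19 were in the tables, 15 of them not members, and no interferon or interferon receptor was among these. At 45 d, 9 of the 11 that could be fitted were above 0 in HVC over WB, with a median log2 difference of 1.44 beside -0.70 for all transcripts, of which 44.5% were above 0. None of the 11 passed edgeR's test (8 of them had an unadjusted p under 0.05, beside 77.6% of all fitted transcripts, and DESeq2 called 0), beside 15.6% called higher and 23.3% called lower over all transcripts. Transcripts came into the tables by their p-values, so these shares describe listed genes only.

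The effectors had few reads. RSAD2 (viperin), which makes an antiviral nucleotide, had 6 reads in R92L1 and 13 in R92L2 (HVC at 45 d), against 2 in WB at 45 d, a ratio of 8.61 (2.08 to 76.2) for both HVC libraries together. CMPK2, a mitochondrial nucleotide kinase, had 8 and 18 reads in R92L1 and R92L2, against 4 in WB (log2 difference 2.48, SE 1.03, edgeR adjusted p 0.194). IFIT5, which binds viral RNA, had 12 and 19 reads, against 8 in WB (1.78, SE 0.84, edgeR adjusted p 0.318). EPSTI1 had 14 and 26 reads, against 11 in WB (1.69, SE 0.74, edgeR adjusted p 0.239). All 4 effectors were above WB in both HVC libraries, beside 41.9% of all fitted transcripts, and above 0 in the fit, beside 44.5%. None of them passed the test. CMPK2 and EPSTI1 have listed reads for the 45 d tissue comparison only. RSAD2 has no reads listed for HVC at 100 d, so its 45 d HVC reads come from that comparison too. CMPK2, EPSTI1 and RSAD2 thus came in through their p-values in this same comparison.

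With age in HVC, 4 of the 5 pathway genes fitted were below 0, beside 49.3% of all fitted transcripts, with a median log2 difference of -1.20 beside 0.02 for all, and none passed edgeR's test (2 had an unadjusted p under 0.05, beside 20.7% of all, and DESeq2 called 0). That median is the value of ZNFX1, which has no reads listed for WB at 100 d. ZNFX1 thus came into this comparison through its p-value for age in HVC, and these values describe listed genes only. With age in WB the genes listed lay on both sides of 0. RSAD2 had 9 reads in WB at 100 d, against 2 at 45 d, a ratio of 5.41 (1.12 to 51.4). IFIT5 had 25 reads in WB at 100 d, against 8 at 45 d (log2 difference 1.89, SE 0.93, edgeR adjusted p 1), and in HVC it had 4 reads at 100 d, against 12 and 19 at 45 d. B2M, the light chain of MHC class I, had 28 reads in WB at 100 d, against 15 at 45 d (1.16, SE 0.78, edgeR adjusted p 1). Of the 6 genes fitted in WB with age, 4 were above 0 and 2 below, beside 47.7% of all fitted transcripts above 0, and none passed edgeR's test (1 had an unadjusted p under 0.05, beside 7.44% of all, and DESeq2 called 0). Both below 0 had fewer reads at 100 d as ISG12 did: the adaptor MYD88, with 8 in WB at 100 d, against 27 at 45 d, and the MHC class II chaperone CD74, with 42 in WB at 100 d, against 105 at 45 d. PTPN11, a phosphatase of cytokine signalling, was not fitted for want of listed HVC reads. It had 206 reads in WB at 100 d, against 349 at 45 d, a size-scaled ratio of 0.71 (0.59 to 0.84). PTPN11, RSAD2 and B2M have no reads listed for HVC at 100 d. Their WB reads at 100 d thus came in through their p-values for age in WB, and their age differences there describe listed genes only.

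**Figure D4:**
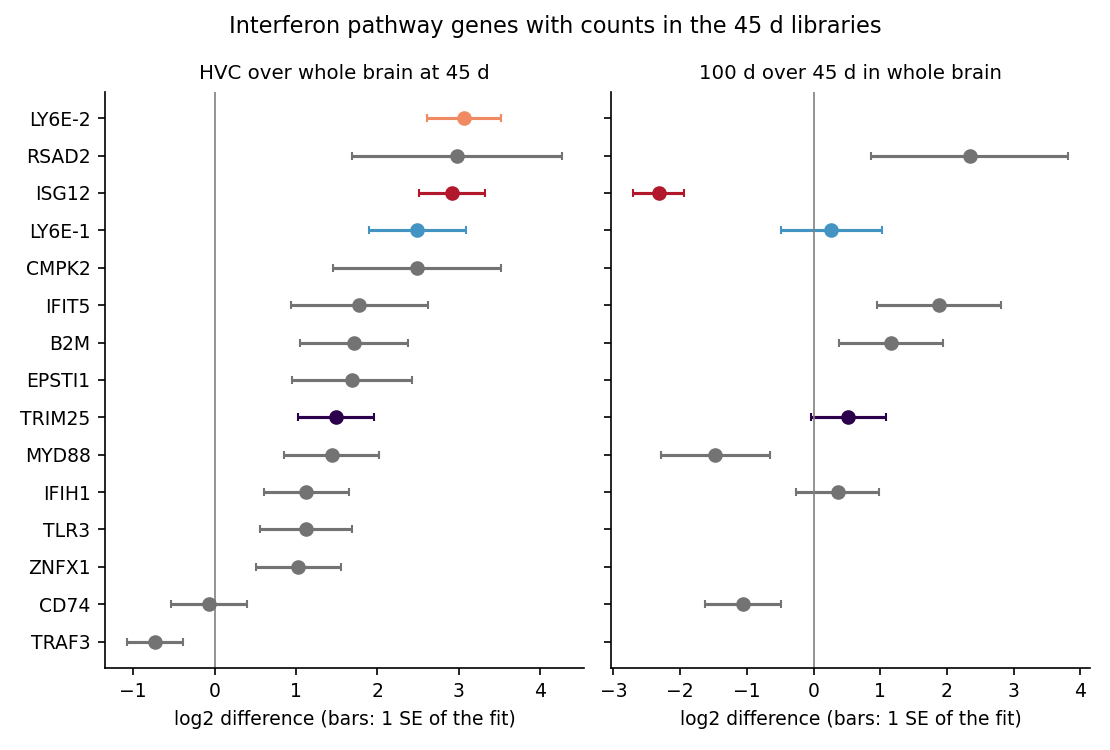
Log2 differences (points, with bars of 1 SE of the edgeR fit) of interferon pathway genes with counts in the 45 d libraries, for HVC over whole brain at 45 d (left) and 100 d over 45 d in whole brain (right, where listed); the 4 members are coloured and ZNFX1 and TLR3 are plotted as further listed sensors. Left of 0 in the right panel are ISG12 (-2.32), MYD88 and CD74, while RSAD2, IFIT5 and B2M lie right of 0.

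For HVC over WB at 100 d, 4 pathway genes were fitted, 2 above 0 and 2 below, beside 45.8% of all fitted transcripts above 0. The 2 below were IFIT5 (log2 difference -2.02) and CD74 (-0.71). edgeR called 1 of the 4 higher, beside 10.7% of all transcripts. MYD88 was that gene, the only pathway gene beside the members that passed a test. It had 30 reads in HVC at 100 d, against 8 in WB at 100 d (log2 difference 2.47, edgeR adjusted p 0.0637), and 3 of 7 alternatives kept it under 0.1, with adjusted p-values from 0.0634 to 1. Its 45 d reads were 50 and 29 in HVC, against 27 in WB. IFIH1 (MDA5), which like RIG-I senses viral RNA, had 58 reads in HVC at 100 d, against 59 and 43 at 45 d, and 46 reads in WB at 100 d, against 43 at 45 d. TRAF3, an adaptor of antiviral signalling, had 62 and 129 reads in R92L1 and R92L2, against 282 in WB at 45 d (-0.73, edgeR adjusted p 0.316). The kinases TBK1 and RIPK1 are listed at 100 d only, with 293 and 91 reads in HVC, against 761 and 277 in WB. Scaled for size, their WB levels at 100 d were 505 and 184. TBK1 and RIPK1 thus came in through their p-values in the 100 d tissue comparison. TRAF3, with reads at 45 d only, came in through the 45 d tissue comparison.

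Of relatives of LY6E, CD59, an inhibitor of complement, was the only one listed. It had 635 reads in HVC at 100 d, against 271 and 464 in HVC at 45 d, and 967 reads in WB at 100 d, against 798 in WB at 45 d. Its log2 age difference in HVC was 0.81 (edgeR adjusted p 1), the opposite side of 0 from LY6E-2. Of the TRIM family, 5 genes other than TRIM25 were listed, and TRIM36-1 was called lower in HVC at 45 d, with 11 and 16 reads, against 84 in WB at 45 d (log2 difference -1.78, edgeR adjusted p 0.0462, and called in 2 of 6 alternatives with adjusted p-values up to 0.989). TRIM24, a nuclear co-regulator, had 54 reads in HVC at 100 d, against 50 and 62 in HVC at 45 d. In HVC over WB it had log2 differences of -0.97 at 100 d and -0.99 at 45 d, where TRIM25 had 0.96 and 1.49. TRIM37 is listed in WB alone, with 103 reads at 100 d, against 188 at 45 d (size-scaled 68.4 and 104), and came in through its p-value for age in WB. TRIM14 had 18 reads in HVC at 100 d, against 3 and 4 in HVC at 45 d. With no reads listed for WB at 100 d, its HVC reads at 100 d came in through its p-value for age in HVC. TRIM36-1 has no reads listed for HVC at 100 d, so its HVC reads came in through the 45 d tissue comparison that called it. TRIM63, best known in muscle, had 8 reads in HVC at 100 d, against 19 and 10 in HVC at 45 d, and 0 reads in WB at 100 d, against 5 in WB at 45 d.

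The genes with the pattern most like ISG12 over the 5 libraries were sought among 975 transcripts with reads in all 5 and a mean of at least 20, by the root mean square difference of mean-centred log2 levels. The nearest was LDB3, a PDZ and LIM domain protein of the muscle Z-disc, at 0.84, with 26 reads in HVC at 100 d, against 121 and 168 in HVC at 45 d, and 25 reads in WB at 100 d, against 56 in WB at 45 d. COL4A1, a basement membrane collagen, followed at 1.07, with 31 reads in HVC at 100 d, against 90 and 114 in HVC at 45 d, and 24 reads in WB at 100 d, against 66 in WB at 45 d. ZDHHC3, a palmitoyl transferase, came next at 1.10, and the other two of the 5 nearest carry no gene symbol. LDB3 kept the order of levels of ISG12 with smaller steps. None of the 3 named is a classical interferon gene. Ranked by correlation in place of distance, only 1 of these 5 stayed among the nearest. For TRIM25 the 5 nearest were C13orf39, RASSF9, BRS3, FAM13A1 and C16orf68, and 2 of them stayed by correlation. They lay at 0.096 to 0.12, against 0.84 to 1.13 for the 5 nearest to ISG12. This distance grows with the steps between libraries, which are larger for ISG12, so the 2 ranges cannot be compared directly. Pearson correlations ran from 0.84 to 0.99 for the 5 nearest to ISG12 and from 0.98 to 0.99 for those of TRIM25.

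Markers of other cells moved with some of these values. In HVC the 4 listed astrocyte markers of 7 (SLC1A2, SLC1A3, GJA1 and AQP4) summed to a level of 10714 at 100 d, against 15633 (R92L1) and 22466 (R92L2) at 45 d, the same order of libraries as ISG12, with log2 age differences from -0.94 to -0.51. The HVC markers (5045, against 5134 and 5955) and oligodendrocyte markers (1358, against 1437 and 1671) had this order too, in smaller steps. Sums for choroid plexus and cerebellum did not have it. The 2 endothelial markers of 11 with reads in the HVC libraries (PECAM1 and VWF) summed to 220 in HVC at 100 d, against 366 and 403 at 45 d. The 4 markers of ventricular zone and ependyma of 9 with reads in HVC summed to 440 at 100 d, against 655 and 859 at 45 d, with MKI67-5 at 0 reads at 100 d, and HVC dissections may hold ventricular zone. The summed shifts are all smaller than those of ISG12 and LY6E-2, although PCNA alone, a marker of dividing cells, had 3 reads in HVC at 100 d, against 25 and 16 at 45 d. SLC1A2, SLC1A3, GJA1, VWF, PCNA and MKI67-5 have listed reads in HVC only, and PECAM1 has none for WB at 100 d. Their HVC reads at 100 d thus came in through their p-values for age in HVC. These age shifts describe listed genes only. Markers differed between tissues at 45 d as well. The endothelial markers TEK and PECAM1 summed to 241 and 289 in HVC, against 125 in WB. VIM and RSPH1, of ventricular zone and ependyma, summed to 623 and 840 in HVC, against 299 in WB. Oligodendrocyte markers went the other way, with 1536 and 1750 in HVC, against 3507 in WB, as did markers of cerebellum and choroid plexus. TEK, PECAM1 and the oligodendrocyte marker CNP have no reads listed for WB at 100 d. Their WB reads at 45 d thus came in through their p-values in this same tissue comparison. The part of other cells in the age and tissue results was not tested. In WB, markers went both ways with age. AQP4 went the other way from ISG12, with a level of 674 at 100 d, against 496 at 45 d. Sums for oligodendrocytes, ventricular zone and choroid plexus were also higher at 100 d. The mural cell marker PDGFRB went the way of ISG12 (11.9 at 100 d, against 21.5 at 45 d), as did sums for HVC and cerebellum. PDGFRB has no reads listed for HVC at 45 d, so its 45 d WB reads came in through its p-value for age in WB. Of 15 markers of microglia and macrophages only CX3CR1 was listed, with 7 reads in HVC at 100 d, against 1 and 2 in HVC at 45 d, the other way from ISG12. CX3CR1 has listed reads in HVC only, so it too came in through its p-value for age in HVC. No red blood cell gene was listed.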

How the data were processed

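RNA of HVC and whole brain was amplified (NuGEN Ovation RNAseq V1), sequenced on a Genome Analyzer, mapped by the authors to taeGut1 with ELAND2 and counted per Ensembl transcript. The deposited tables hold raw read counts, with the authors' log2 fold changes, and the authors' p-values and adjusted p-values, for 1800 transcripts each. The latter columns hold the study's findings and were used only to solve relative library sizes and the number of transcripts tested (10859 to 11507). Whether multiply mapped reads were kept is not given in the sources used here.

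Counts were fitted with edgeR 4.0.16 (glmQLFit, glmQLFTest, filterByExpr, 1 mean per group) in R 4.3.3. WB with age and tissue at 100 d kept the 45 d HVC pair in the fit for the spread (1 residual degree of freedom). Benjamini-Hochberg adjustment used the number tested by the authors, and calls were made at an adjusted p under 0.1. Fold changes without a test are given where the members were chosen. Members and gene lists were chosen with earlier results of these data known. Named genes are the 4 members, the 5 transcripts most like ISG12 and TRIM25 (pseudocount 1), and, per list, those called and up to 4 others with the most reads. A further gene of the lists is not reported here and is left out of the counts. Exact intervals (Clopper-Pearson, 95%) cover counting error only. Alternatives were sums of listed counts, relative log expression and TMM as scalings, DESeq2 1.42.0, no filter, 1 model of all libraries, and each 45 d HVC library left out. A robust spread was added after the data were seen. Fits were tested on simulated data with the same spread for every transcript, which does not cover a gene that varied as ISG12 did in the 45 d pair. Figures used matplotlib 3.10.9.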

Additional observations from a re-analysis of the deposited data

Results flagged for a closer look

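LY6E-1 was below both 45 d libraries in HVC at 100 d and above the 45 d library in WB at 100 d, so that its age differences ran opposite ways in the 2 tissues, by a difference of -0.78 on the log2 scale (SE 0.95). Whether the tissues differ was not tested, because HVC with age was used to choose the members, and the WB values rest on 16 reads at each age.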

How the results depend on the processing

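ISG12 kept its direction in every comparison and alternative. Its age difference in WB (log2) was no longer called with sums of the listed counts (-2.43) or DESeq2 (-2.32), and HVC over WB at 100 d was not called with relative log expression (1.84), TMM (1.80) or DESeq2 (1.49). Leaving out a 45 d HVC library gave ISG12 -4.20 to -3.10 for age in HVC, 2.27 to 3.37 for HVC over WB at 45 d and -1.88 to -0.78 for age by tissue. Transcripts called for age in HVC, 0 as reported, were 2 with DESeq2 and 18 with 1 model of all 5 libraries. For age in WB, 5 became 0 with sums or DESeq2 and 2 with relative log expression. For age by tissue, 4 became 0 with sums, TMM or DESeq2. For HVC over WB at 45 d, 748 became 182 with sums, 444 with relative log expression, 279 with TMM and 124 with DESeq2. At 100 d, 333 became 199, 141, 59 and 35 in the same order. More of the calls then lay on the HVC side, with 146 higher and 187 lower at 100 d becoming 113 and 28 with relative log expression, and 300 and 448 at 45 d becoming 378 and 66. With relative log expression the median log2 difference of all fitted transcripts moved from -0.42 to -0.01 at 100 d and from -0.70 to -0.07 at 45 d. Why the scalings differ was not tested. Of 105 values of the other members, 92 moved by less than the spread of the 45 d pair or kept their side of the threshold, and 13 moved by more. No paired analysis was possible because each library pools birds and no label links libraries of different groups to the same birds. Depth limits LY6E-1 and the effectors, with 2 to 54 reads a library.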
